A study of Mus musculus with 12 samples.

Results

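Mast cell and basophil genes were followed through 12 mouse lung samples. They comprise 9 genes: Cpa3, Cma1, Mcpt4 and Tpsb2, which encode proteases of mast cell granules, Fcer1a and Ms4a2, which encode chains of the high-affinity IgE receptor, the growth factor receptor gene Kit, the histamine synthesis gene Hdc and the transcription factor gene Gata2. The genes were found by matching the RefSeq transcript of each probe to its symbol, without use of any measured value. All 9 of 9 had a probe, among 17012 genes with a symbol on the array, and they were covered by 12 probes. Of the 9, 8 entered the tests, which required a probe to stand well above background throughout at least 1 group, and 4 (Kit, Hdc, Gata2 and Cma1) were well above background on all 12 arrays. Ms4a2 was above background on no array.

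Mast cells are tissue-resident granulocytes that depend on stem cell factor, the product of Kitl, acting on the Kit receptor, and basophils are their circulating counterparts. Both carry IgE on a receptor built from an alpha chain (Fcer1a), a beta chain (Ms4a2) and a shared gamma chain (Fcer1g), and crosslinking of the receptor releases histamine and proteases from granules. In the mouse, connective tissue mast cells store carboxypeptidase A3 (Cpa3), the chymases Mcpt4 and Cma1 (mast cell protease 5) and tryptase (Tpsb2), whereas mucosal mast cells are known for Mcpt1 and Mcpt2 and basophils for Mcpt8. Mast cells are sparse in the lung parenchyma of laboratory mice and lie mainly along the large airways and vessels. Several of the 9 genes are also active in other lung cells: Kit and Gata2 in endothelium, and Hdc in other myeloid cells.

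The labels describe female FVB/N mice (the strain is also written FVB/NJ) that were 7 weeks old at exposure, and name no engineered allele. PBS mice received phosphate-buffered saline every week for 16 weeks. LPS mice received lipopolysaccharide, the endotoxin of Gram-negative bacteria, instilled through the nostrils once a week over 16 weeks at 5 ug in each mouse. NNK mice received a nitrosamine carcinogen of tobacco at 3 mg per mouse by intraperitoneal injection during the first 4 weeks, on a schedule that the labels call both biweekly and semi-weekly, and no vehicle is named for them. LPS/NNK mice received both agents. Lungs were taken 1 week after the last treatment, with 3 arrays per group and 1 sample per array, and neither the inclusion of tumour tissue nor the age of the NNK mice at death is given in the sources used here. RNA was labelled in 1 colour and hybridised to Agilent mouse arrays. Levels are given as the log2 of the background-subtracted signal minus the 75th percentile of the same array, so a level of 0 equals that percentile and a difference of 1 is a 2-fold difference.

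The arrays differed between groups before any gene was considered. The 75th percentile of brightness was 746 to 1062 on PBS arrays and 202 to 556 on treated arrays, and 70.2% to 73.1% against 55.6% to 67.5% of spots were well above background. The lowest level at which a probe counted as well above background was therefore -6.29 to -6.06 on PBS arrays and -5.58 to -4.27 on treated arrays, so a dim gene could be seen at a lower relative level in PBS than in any treated group. PBS arrays lay at position 1 of their slides and treated arrays at positions 2 and 4, so position and treatment cannot be told apart. PBS 2 was scanned on a different day from all other arrays, and the part of scan day was not tested. All 7 lung epithelial markers examined, among them the surfactant gene Sftpc at mean levels of 8.66 to 10.37, were well above background on all 12 arrays. PBS 1 and PBS 2 did not match the labelled sex: Xist was not above background there (levels -8.54 and -8.49) and the Y-linked gene Ddx3y was (0.72 and 0.92), whereas PBS 3 and the 9 treated arrays showed the opposite pattern. Results are therefore also given with PBS 1 and PBS 2 left out, which leaves PBS 3 as the only control and takes the spread from the other groups.

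Against PBS, 3 of the 8 tested genes were called at an adjusted p under 0.05 in LPS (Cpa3 and Kit lower, Hdc higher), the same 3 in NNK, and 4 in LPS/NNK (Cpa3, Kit and Cma1 lower, Hdc higher). Over all 21856 items tested, LPS called 56.1%, NNK 51.9% and LPS/NNK 55.4%, so in this fit the share of mast cell and basophil genes called was no larger than the background. The median difference of the 8 genes was -0.32, 0.10 and -0.17, beside -0.10, 0.01 and -0.08 for all items. Adjusted p-values are from limma's moderated test, 2-sided, with Benjamini-Hochberg adjustment over all items. The 3 comparisons share the PBS arrays and are not independent of each other. With PBS 1 and PBS 2 left out, 2, 3 and 3 of 8 genes were called, beside 26.6%, 19.6% and 30.7% of all items. Cpa3 and Cma1 were among the calls in all 3 comparisons. Both were set against PBS 3 alone, which exceeded the mean of PBS 1 and PBS 2 by 2.05 and 2.14. Cpa3 was also above background on no treated array. With 1 control array, these shares cannot show whether the members were called more often than the background.

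**Figure D1:**
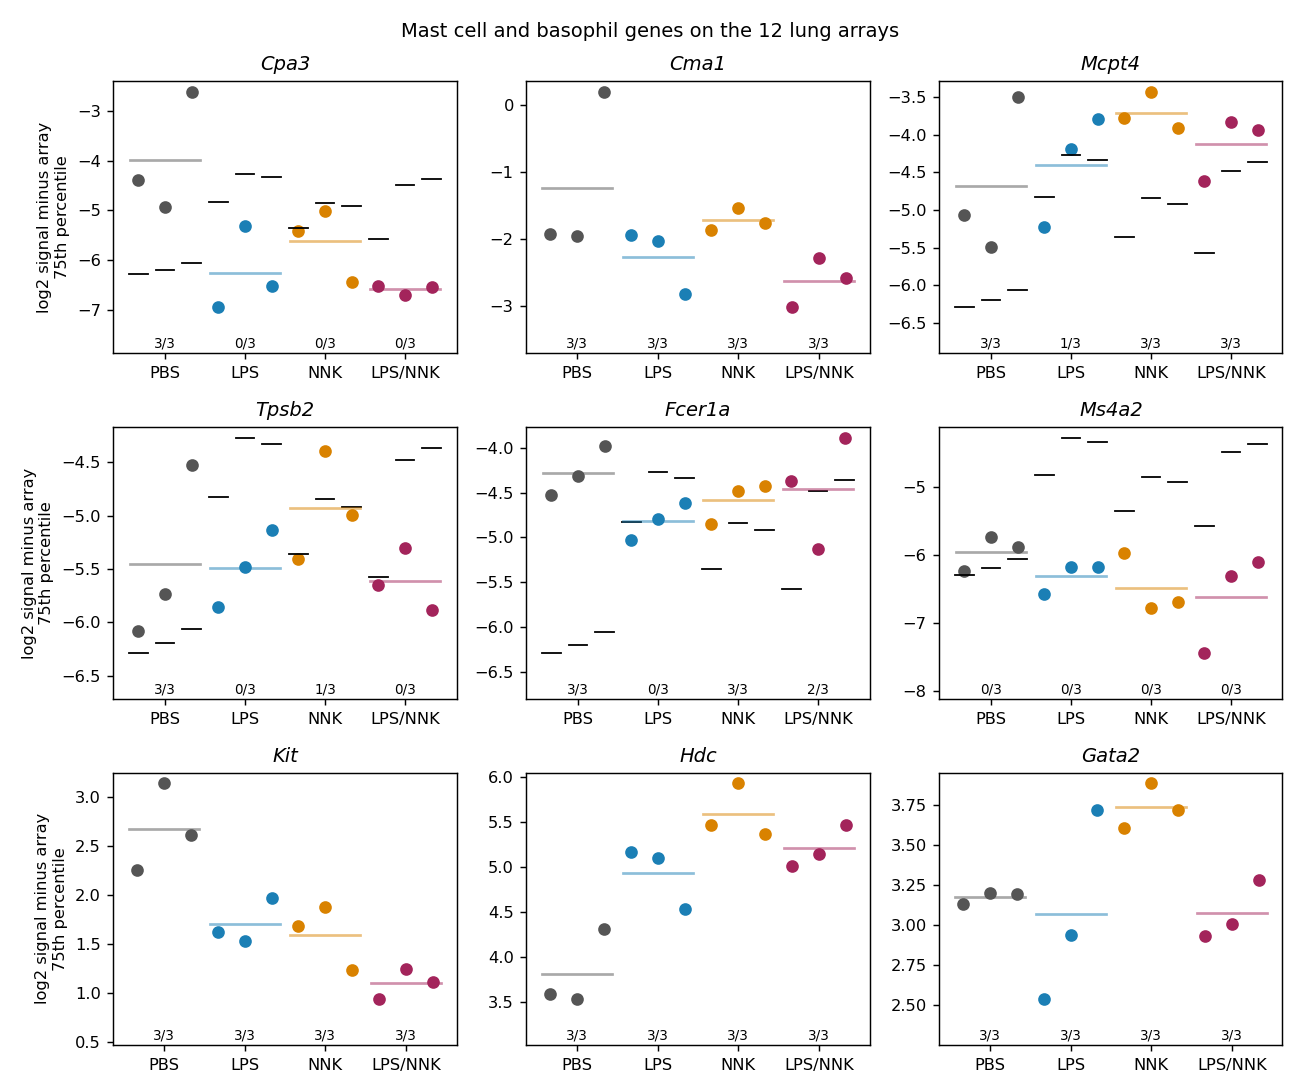
Each panel shows 1 gene on the 12 arrays, with the level (log2 signal minus the array's 75th percentile) on the vertical axis, 1 point per array in the order PBS 1, 2, 3, LPS 1, 5, 6, NNK 2, 3, 5 and LPS/NNK 2, 3, 6, a coloured line at the group mean, and under each group the number of its 3 arrays on which the gene was well above background. Black dashes in the panels of the 5 dimmest genes mark the lowest level of any probe well above background on that array, and the single high PBS point in the Cpa3, Cma1, Mcpt4 and Tpsb2 panels is PBS 3.

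The granule proteases were low in these lungs, and within the PBS group they split the arrays. Cpa3, the carboxypeptidase that is among the most abundant transcripts of mast cells, had levels of -4.38, -4.93 and -2.61 on the PBS arrays 1, 2 and 3. On the LPS arrays it was at -6.95, -5.32 and -6.51, on the NNK arrays at -5.41, -5.02 and -6.43, and on the LPS/NNK arrays at -6.52, -6.71 and -6.54. It was well above background on all 3 PBS arrays and on none of the 9 treated arrays, and no treated array reached the lowest PBS array. Since Cpa3 passed the filter through PBS alone, a fall was the only change it could show, and its size is not known. The measured differences from PBS were -2.28 in LPS (adjusted p = 0.0037), -1.65 in NNK (adjusted p = 0.0243) and -2.62 in LPS/NNK (adjusted p = 0.00148), all from treated values below background. Its PBS mean was also set against the lowest measurable level of each treated array, or the gene's own value where that was higher. The lowest measurable level is that of the dimmest probe well above background on the array. By this measure, which these p-values do not test, PBS was 1.42-fold LPS, 2.09-fold NNK and 1.78-fold LPS/NNK. These folds are not strict bounds, because a probe above that level could still count as not above background. A second Cma1 probe did so on LPS 1, at -4.80 beside a lowest measurable level of -4.82. In a bulk sample, fewer mast cells and less Cpa3 RNA per mast cell cannot be told apart.

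The NNK result for Cpa3 rested on single arrays. Its measured difference from PBS was -1.65 with all arrays, -0.96 without PBS 3, -1.24 without NNK 5 and -1.59 with quantile normalization, and none of the latter passed the threshold. For LPS and LPS/NNK the difference passed when each array was left out in turn, at -1.60 and -1.93 without PBS 3. These passes rest on treated values below background, so they do not show that a measured fall was stable. PBS 1 and PBS 2, at -4.38 and -4.93, lay beside lowest measurable levels of -4.82, -4.27 and -4.33 on the LPS arrays. The fold given for LPS therefore relied on PBS 3. Lowest measurable levels were -5.36, -4.84 and -4.92 on the NNK arrays and -5.58, -4.48 and -4.37 on the LPS/NNK arrays. PBS 3, the highest PBS array, raised the folds given for those groups as well. In the scanner's own signal, before scaling, Cpa3 was 50.9, 32.9 and 122 units on the PBS arrays and 2.0 to 10.5 units on the treated arrays, whose 75th percentile was lower as well. The direction was lost when background was corrected by normexp with an offset of 50 units, an amount larger than any Cpa3 signal on a treated array: the difference was then 0.09, 1.14 and 0.78.

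Cma1, a chymase stored beside Cpa3 and known as mast cell protease 5, was the only protease well above background on all 12 arrays. Its levels were -1.93, -1.96 and 0.20 in PBS, -1.94, -2.03 and -2.83 in LPS, -1.86, -1.54 and -1.77 in NNK, and -3.01, -2.28 and -2.57 in LPS/NNK. PBS 3 alone was high, PBS 1 and PBS 2 lay inside the range of the LPS and NNK arrays, and all 3 LPS/NNK arrays lay below all PBS arrays. The difference from PBS was -1.39 (SE 0.48, adjusted p = 0.0242) for LPS/NNK, -1.03 (adjusted p = 0.0796) for LPS and -0.49 (adjusted p = 0.403) for NNK. The LPS/NNK call was lost without PBS 3 (difference -0.68) and without LPS/NNK 2 (-1.20), and also with quantile normalization (-1.16), cyclic loess (-1.04), median centring (-1.06) and normexp (-0.36). Against LPS, on the other hand, a call was gained without PBS 1 (-1.38), without PBS 2 (-1.40) and with PBS 3 as the only control (-2.46). A second, dimmer probe of Cma1 gave the same order within PBS, at -4.13, -4.50 and -2.07, and was called lower in LPS (-1.46) and in LPS/NNK (-1.32), but it was well above background on no LPS array and on 1 LPS/NNK array.

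Mcpt4, the chymase of connective tissue mast cells and the counterpart of human chymase, did not follow Cpa3 and Cma1 in its differences from PBS. Its levels were -5.07, -5.49 and -3.50 in PBS, -5.22, -4.20 and -3.80 in LPS, -3.78, -3.43 and -3.92 in NNK, and -4.61, -3.83 and -3.93 in LPS/NNK. On this probe PBS 3 lay among the treated arrays, and PBS 2 was the lowest and PBS 1 the third lowest of the 12. None of the differences (LPS 0.28, NNK 0.98 and LPS/NNK 0.56 above PBS, SE 0.47 each) passed the threshold. Without PBS 3 they were 0.87, 1.57 and 1.15, of which the last 2, for NNK and LPS/NNK, passed. In LPS the gene was well above background on 1 of 3 arrays. A second probe of Mcpt4 was at -5.37, -5.67 and -2.85 in PBS. There PBS 3 lay above all treated arrays, whose highest was LPS/NNK 3 at -3.58. None of its differences from PBS passed (0.37 for LPS and 0.81 for NNK). The scanner's own signal on the first Mcpt4 probe was 31.7, 22.4 and 65.7 units in PBS and 13.3 to 32.7 units in the treated groups. The higher relative level in NNK is therefore a statement about the share of the array's signal.

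Tpsb2, a tryptase, was close to the detection limit. It was well above background on all 3 PBS arrays (levels -6.08, -5.73 and -4.53) and on NNK 3 (-4.39), and on no other array. For LPS and LPS/NNK no fold could be given, because the mean lowest measurable level of each group was above the PBS mean of -5.45. The difference of 0.52 for NNK (SE 0.39, adjusted p = 0.273) rose to 0.98 and passed the threshold without PBS 3.

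The 4 proteases shared the high value of PBS 3. That array exceeded the mean of PBS 1 and PBS 2 by 2.05 for Cpa3, 2.14 for Cma1, 1.77 for Mcpt4 and 1.38 for Tpsb2, and the second probes of Cma1 and Mcpt4 differed by 2.25 and 2.67. The other genes differed less within PBS: by 0.74 for Hdc, 0.43 for Fcer1a, 0.10 for Ms4a2, 0.03 for Gata2 and -0.08 for Kit. PBS 3 is the PBS array with the sex markers of the treated arrays, and it was also higher than PBS 1 and PBS 2 in 7 of 8 heart muscle genes, for example Nppa (1.35 against -1.31 and -1.34) and Myh6 (4.59 against 3.20 and 3.33). The summed signal of the 8 heart muscle genes, in multiples of the 75th percentile, ranged from 73.7 to 147 in PBS, 60.9 to 129 in LPS, 80.5 to 200 in NNK and 50.3 to 118 in LPS/NNK. The part of sex or of heart muscle in the protease levels was not tested. With groups removed by subtracting each group's mean, Mcpt4 and Tpsb2 correlated at r = 0.79 and Cpa3 and Mcpt4 at r = 0.75 over the 12 arrays. Over the 9 treated arrays alone, without that subtraction, the same pairs had r = 0.70 and 0.54, so the 2 sets of values are not alike. On those 9 arrays Cpa3 was above background on none and Tpsb2 on 1. High values were not particular to the proteases. With groups removed, Cma1 and Hdc had the highest r of the tested pairs, 0.83, and Cpa3 and Hdc had 0.68. All of these describe arrays that share depth and background.

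**Figure D2:**
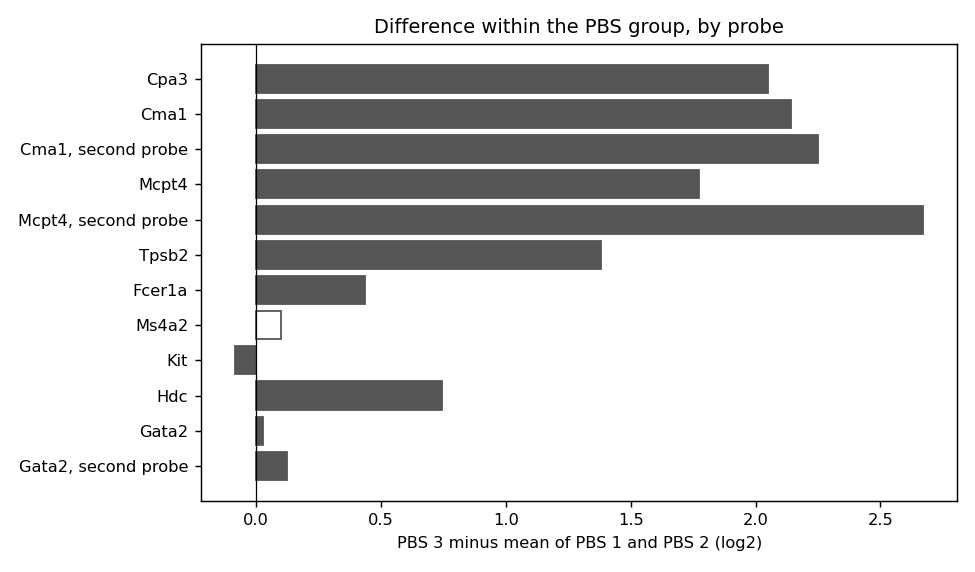
Bars give the level of PBS 3 minus the mean level of PBS 1 and PBS 2 (log2) for each of the 12 probes, with the white bar for Ms4a2, which was not above background. The 6 protease probes lie between 1.38 and 2.67, and the remaining probes between -0.08 and 0.74.

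The promoters of the 3 proteases with a sequence entry are shown because these genes moved together between PBS arrays and because mast cell genes are known to be bound by GATA factors, Gata2 among them. Each runs 5' to 3' from 250 bases before to 50 bases after the transcript start, in the RefSeq annotation of GRCm38.p6, on the minus strand, and capitals mark each GATAA or its reverse complement TTATC. The Cpa3 window is chr3:20242132-20242431, the Cma1 window chr14:55944626-55944925 and the Mcpt4 window chr14:56062261-56062560.
Cpa3: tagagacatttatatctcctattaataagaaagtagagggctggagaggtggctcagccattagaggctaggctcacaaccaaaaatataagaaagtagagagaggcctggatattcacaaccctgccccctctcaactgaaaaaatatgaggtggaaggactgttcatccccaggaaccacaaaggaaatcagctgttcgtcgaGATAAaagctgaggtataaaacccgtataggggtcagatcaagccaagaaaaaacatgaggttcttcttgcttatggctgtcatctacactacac
Cma1: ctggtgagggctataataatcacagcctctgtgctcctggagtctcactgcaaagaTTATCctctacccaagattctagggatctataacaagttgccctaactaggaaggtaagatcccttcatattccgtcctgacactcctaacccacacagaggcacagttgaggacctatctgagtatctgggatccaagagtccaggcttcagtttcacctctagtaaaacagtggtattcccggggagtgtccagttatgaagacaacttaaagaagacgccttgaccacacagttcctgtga
Mcpt4: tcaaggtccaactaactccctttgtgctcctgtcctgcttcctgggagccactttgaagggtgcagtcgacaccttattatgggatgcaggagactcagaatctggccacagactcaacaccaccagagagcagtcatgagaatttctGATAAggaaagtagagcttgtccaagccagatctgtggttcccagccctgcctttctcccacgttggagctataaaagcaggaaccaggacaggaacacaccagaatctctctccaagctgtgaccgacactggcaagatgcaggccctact
The match lies 45 bases before the start in Cpa3, 194 bases before it in Cma1 and 102 bases before it in Mcpt4. Promoter entries matched 8 of the 9 genes. Searched for GATAA on both strands, the windows of Fcer1a (1 match) and Ms4a2 (3 matches) also held it, and those of Kit, Hdc and Gata2 did not, while Tpsb2 has no entry. Of 32851 promoter windows of the same length, 25.4% held the motif, and 72.3% held the E-box CANNTG, which was found in Cpa3 (2 matches), Fcer1a (3), Kit, Cma1, Hdc and 1 of 2 Gata2 windows, and not in Mcpt4 or Ms4a2. No GATAA match overlapped a CANNTG match. These are letters in a window, not measured binding.

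The chains of the IgE receptor gave little signal. Fcer1a, the IgE-binding alpha chain, had levels of -4.52, -4.32 and -3.99 in PBS, -5.03, -4.80 and -4.62 in LPS, -4.85, -4.48 and -4.43 in NNK, and -4.37, -5.13 and -3.89 in LPS/NNK. It was well above background on 8 arrays, among them all PBS and NNK arrays and no LPS array. The measured difference in LPS was -0.54 (adjusted p = 0.142). Against the lowest measurable level of the LPS arrays the PBS mean was 1.15-fold, which is not a strict bound. The differences for NNK (-0.31) and LPS/NNK (-0.19) were at or below about their standard error of 0.30. Ms4a2, the beta chain, which among blood and tissue cells is largely restricted to mast cells and basophils, ranged from -7.44 to -5.74 with no array above background, so its level could not be compared. Fcer1g, the gamma chain that other Fc receptors also use, was well above background on all 12 arrays and higher in LPS (1.66, adjusted p = 0.00189) and LPS/NNK (1.60, adjusted p = 0.00218); the difference of 0.73 for NNK did not pass.

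Kit, the receptor for stem cell factor and the gene on which mast cell survival depends, was read from 10 spots on each array whose log2 signals had an SD of 0.04 to 0.10. Its levels were 2.26, 3.14 and 2.62 in PBS, 1.63, 1.53 and 1.97 in LPS, 1.68, 1.88 and 1.24 in NNK, and 0.95, 1.24 and 1.12 in LPS/NNK. Every treated array lay below every PBS array, and the LPS/NNK arrays lay below all LPS arrays. The group means were 2.67 ± 0.44 (SD, n = 3), 1.71 ± 0.23, 1.60 ± 0.33 and 1.10 ± 0.15. Kit fell by 0.96 in LPS (SE 0.27, adjusted p = 0.00882), by 1.07 in NNK (adjusted p = 0.00568) and by 1.57 in LPS/NNK (adjusted p = 0.00037), the last a 2.97-fold lower level.

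Among the treated groups Kit did not pass the adjusted threshold. LPS/NNK differed from LPS by -0.61 (unadjusted p = 0.043, adjusted p = 0.182) and from NNK by -0.50 (adjusted p = 0.222), and NNK and LPS overlapped. The LPS/NNK fall against PBS passed under all 25 alternative settings, including PBS 3 as the only control (-1.51). The fall in LPS was lost without PBS 2 (-0.73), with PBS 3 alone (-0.91), with median centring (-0.55) and with normexp (-1.01). The fall in NNK was lost with PBS 3 alone (-1.02) and when slides were fitted as fixed effects (-0.83). Within slides, the difference in Kit level was -0.93 for NNK 2 minus PBS 3 and -1.14 for LPS/NNK 6 minus PBS 1. The 2 slides that held NNK and LPS/NNK differed from each other, at -0.93 for LPS/NNK 2 minus NNK 3 and 0.0056 for LPS/NNK 3 minus NNK 5.

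Kitl, which encodes the ligand of the Kit receptor and is made by stromal and endothelial cells, moved the same way as its receptor. Its levels were 2.10, 2.22 and 1.60 in PBS, -0.64, 0.23 and 0.86 in LPS, 0.56, 0.92 and 1.33 in NNK, and -0.59, -0.02 and 0.38 in LPS/NNK, with no treated array reaching the PBS range. Kitl fell by 1.83 in LPS (SE 0.38), by 1.04 in NNK and by 2.05 in LPS/NNK, and all 3 passed. Kit is also active in endothelium, and some endothelial genes fell with it: Tek, the angiopoietin receptor, fell by 2.13, 1.52 and 2.52 in LPS, NNK and LPS/NNK. Of 17 endothelial genes, all above background on all 12 arrays, 2, 5 and 2 were higher than PBS and 3, 2 and 2 lower in LPS, NNK and LPS/NNK. Their summed signal, in multiples of the 75th percentile, was 243 to 265 in PBS, 264 to 326 in LPS, 357 to 439 in NNK and 224 to 358 in LPS/NNK. Beside the endothelial counts, LPS, NNK and LPS/NNK called 56.1%, 51.9% and 55.4% of all items. The part of endothelium in the Kit result was not tested.

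Hdc, which encodes histidine decarboxylase, the enzyme that makes histamine, moved opposite to Cpa3 and Kit. Its levels were 3.59, 3.54 and 4.31 in PBS, 5.16, 5.10 and 4.53 in LPS, 5.46, 5.92 and 5.37 in NNK, and 5.01, 5.14 and 5.47 in LPS/NNK. All 9 treated arrays lay above all PBS arrays, with NNK above LPS throughout. The group means were 3.81 ± 0.43 (SD, n = 3), 4.93 ± 0.35, 5.58 ± 0.30 and 5.21 ± 0.23. Hdc rose by 1.12 in LPS (SE 0.28, adjusted p = 0.00484), by 1.77 in NNK (adjusted p = 0.000461) and by 1.39 in LPS/NNK (adjusted p = 0.00115).

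The rise in NNK passed under all 25 alternative settings, from 0.94 to 2.02. The rises in LPS and LPS/NNK were lost with quantile normalization (0.50 and 0.61), with cyclic loess (0.30 and 0.40), with normexp (0.98 and 1.16) and with PBS 3 as the only control (0.62 and 0.90). In the scanner's own signal, before scaling to the array, Hdc was 11682 to 14777 units in PBS and 6825 to 20352 units in the treated groups, so the groups overlapped there, on PBS arrays with a higher 75th percentile. Of the 11 neutrophil genes listed, which mark another cell type that can express Hdc, 9 were tested; 3, 2 and 3 were higher and 2, 1 and 0 lower in LPS, NNK and LPS/NNK. Their summed signal was 27.8 to 85.2 times the 75th percentile in PBS, 58.4 to 113 in LPS, 58.1 to 114 in NNK and 60.0 to 89.0 in LPS/NNK, and Elane was above background on no array. Beside the neutrophil counts, LPS, NNK and LPS/NNK called 56.1%, 51.9% and 55.4% of all items. The part of neutrophils in the Hdc result was not tested.

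Gata2, a transcription factor of blood progenitors, mast cells and endothelium, was level across PBS, at 3.13, 3.20 and 3.19. The LPS arrays were at 2.54, 2.94 and 3.72, the NNK arrays at 3.61, 3.88 and 3.72, and the LPS/NNK arrays at 2.93, 3.01 and 3.28. NNK lay above all PBS and all LPS/NNK arrays, and LPS spanned both sides of PBS. The difference of 0.56 for NNK against PBS (SE 0.28, adjusted p = 0.105) did not pass, while the second probe of Gata2 gave 0.76 and passed, as did centring on the array median (0.80) and a fit without LPS 6, which narrows the shared spread. Quantile normalization gave 0.03 for the same comparison, and in LPS and LPS/NNK called Gata2 lower than PBS (-0.64 and -0.73), as did cyclic loess (-0.63 and -0.75), so its direction depended on scaling. Gata2 is also a gene of blood progenitors and megakaryocytes, and of 9 erythroid and megakaryocyte genes, 7 were tested, with 1, 4 and 1 higher and 1, 0 and 2 lower in LPS, NNK and LPS/NNK. Their summed signal was 233 to 328 times the 75th percentile in PBS, 478 to 685 in LPS, 714 to 872 in NNK and 306 to 795 in LPS/NNK, and their part in the Gata2 levels was not tested. Beside the erythroid and megakaryocyte counts, LPS, NNK and LPS/NNK called 56.1%, 51.9% and 55.4% of all items.

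**Figure D3:**
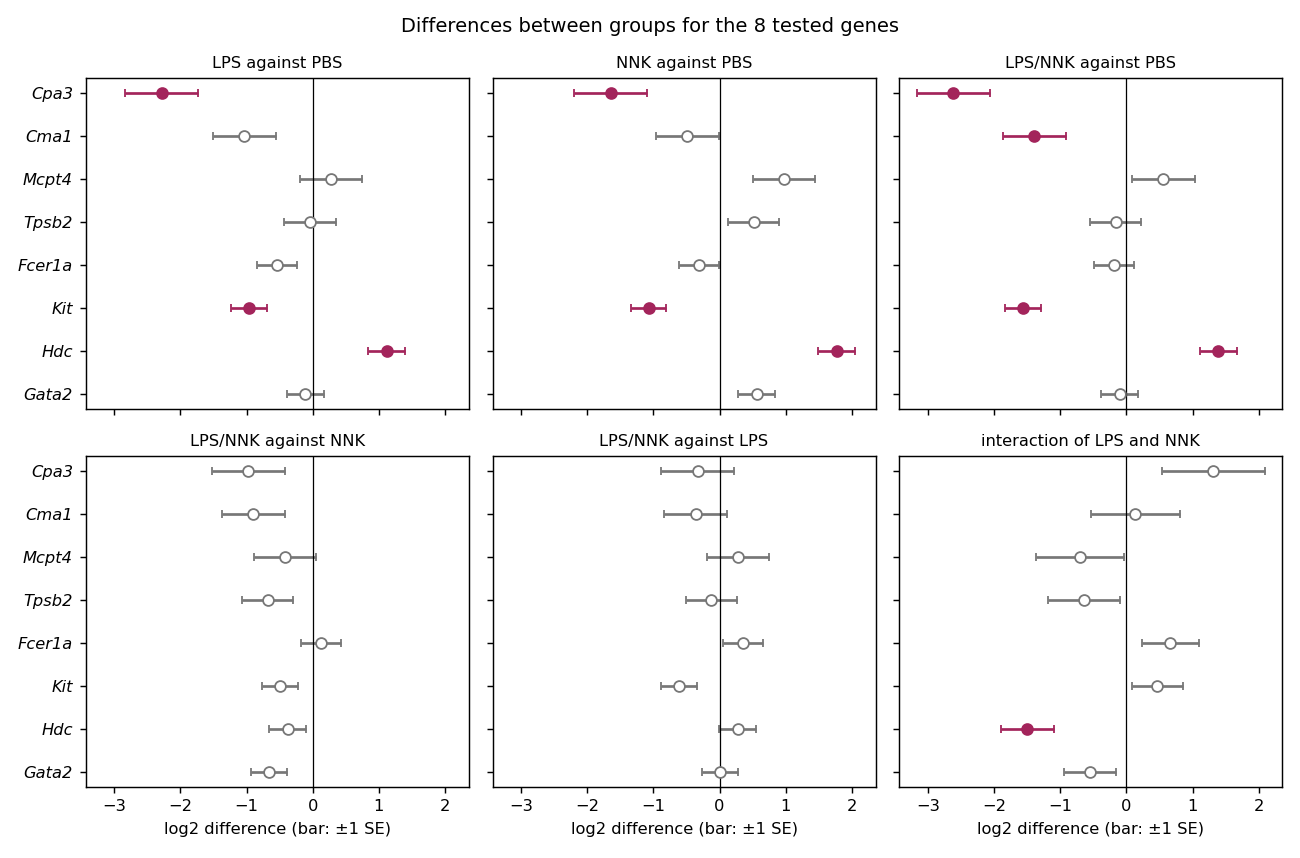
The log2 difference between groups is shown for the 8 tested genes in 6 comparisons, with bars of 1 standard error on each side; filled points passed an adjusted p under 0.05. Cpa3 and Kit lie left of 0 and Hdc right of 0 in all 3 comparisons with PBS, and in the comparisons of LPS/NNK with NNK or LPS every point is open.

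Adding LPS to NNK, and NNK to LPS, gave no call among the 8 genes. In limma, LPS/NNK against NNK called 0 of 8, with 17.6% of all items called, and at an unadjusted p under 0.05 only Gata2 differed (-0.66, SE 0.28, adjusted p = 0.115). That difference passed in a fit without LPS 6 (adjusted p = 0.0426). LPS/NNK against LPS called 0 of 8, with 4.16% of all items called, and at an unadjusted p under 0.05 only Kit differed. The median difference of the 8 genes was -0.58 in LPS/NNK against NNK, beside -0.08 for all items, and -0.06 in LPS/NNK against LPS, beside 0.10. These medians include Cpa3, which was above background on none of the treated arrays. They also include Tpsb2, which was above background on 1 NNK array and on no LPS or LPS/NNK array.

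The interaction asked whether LPS acted differently in mice with and without NNK, and 39.0% of all items were called. Hdc was the 1 gene of 8 that passed. Without NNK, LPS raised Hdc by 1.12, and with NNK the difference was -0.38 (SE 0.28, adjusted p = 0.377), so the interaction was -1.50 (SE 0.40, adjusted p = 0.0119). It stayed past the threshold when each array was left out in turn and was lost with PBS 3 as the only control (-1.0), with quantile normalization (-1.08), with cyclic loess (-0.84) and with normexp (-1.01). For Cpa3 the interaction was 1.31 (SE 0.78, adjusted p = 0.194), and with PBS 3, its highest array, as the only control it was 2.68. Since no treated array was above background, this value reflects the PBS level and says nothing of an interaction.

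**Figure D4:**
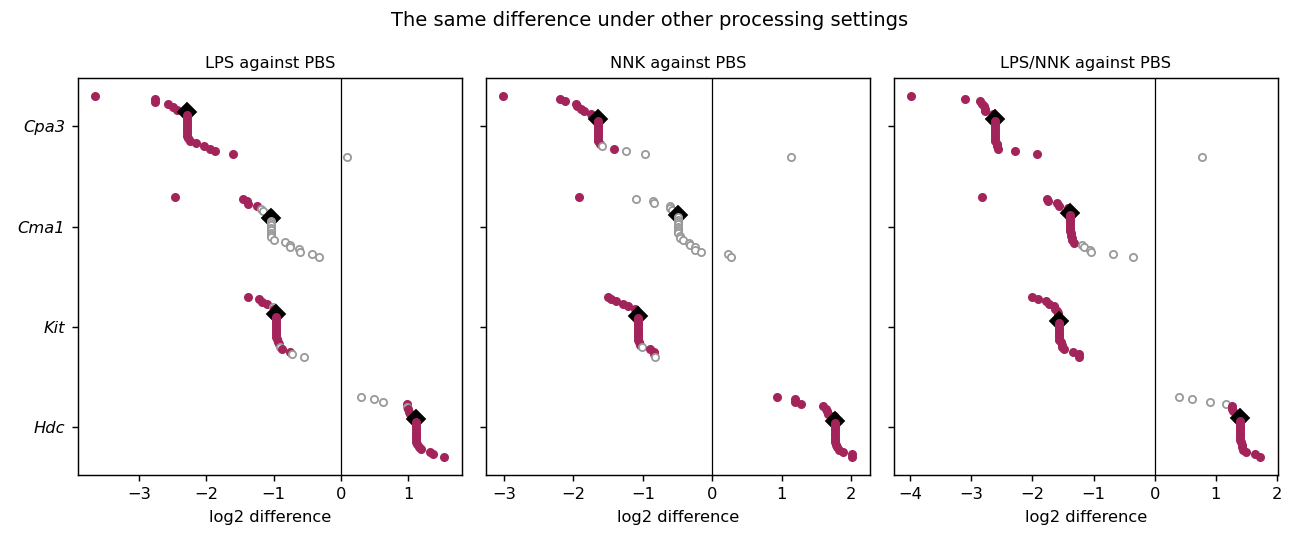
The log2 difference from PBS of 4 genes is shown for the reported processing (black diamond) and for each alternative (points, filled where the adjusted p was under 0.05), spread vertically for legibility in the order of their values. Kit in LPS/NNK and Hdc in NNK are filled throughout, the open Cpa3 points right of 0 are those of normexp, and Cma1 is mostly open for NNK.

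Few other mast cell genes could be measured. Of 8 further mast cell genes, 7 had a probe and 3 were tested, and all 3 were lower in LPS: Rab27b, a GTPase of granule release, by 2.62 (SE 0.27), Il1rl1, the receptor of interleukin 33, by 1.49 (SE 0.33), and Slc18a2, the vesicle transporter that loads histamine into granules, which was well above background on no LPS array. The LPS call of Slc18a2 therefore rests on values below background. All 3 were well above background on all PBS arrays, and only 1 of the 3 was on all LPS arrays. In NNK and LPS/NNK 2 of the 3 fell, Rab27b by 1.39 and 0.79 and Il1rl1 by 0.86 and 1.58, while Slc18a2 differed by -0.67 and -0.88 without passing. Rab27b was higher in LPS/NNK than in LPS by 1.83 (adjusted p = 0.00767). Mcpt1, Mcpt2 and Mrgprb2 were above background on no array and Mrgprb1 on 1. Of 8 basophil genes, 6 were tested and 2, 1 and 2 were higher in LPS, NNK and LPS/NNK, namely Il3ra in all 3 and Ifitm1 in LPS and LPS/NNK, both of which other cells express. Of the 8, 6 were well above background on all PBS arrays, but 2 on all LPS arrays and 5 on no LPS array. On all NNK and all LPS/NNK arrays, 4 and 2 were. The uncalled genes were thus partly unmeasured in LPS. Cd200r3 was above background on no array and Mcpt8 on 1. Beside the mast cell and basophil counts, LPS, NNK and LPS/NNK called 56.1%, 51.9% and 55.4% of all 21856 items. Of these items, 5485, 5949 and 5893 were called higher and 6774, 5386 and 6211 lower.

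Genes of the signalling pathway downstream of the receptor were mostly measurable. Of 15 genes of IgE receptor signalling, 14 were tested; 8, 2 and 7 were higher and 1, 3 and 2 lower in LPS, NNK and LPS/NNK, with medians of 1.11, 0.10 and 0.90. Lat, the adaptor at which the signal branches, rose by 1.98 in LPS and 2.98 in LPS/NNK, Lcp2 by 1.30 and 2.25, and Plcg2, which releases calcium, by 1.97 and 2.17. Inpp5d, the inhibitory phosphatase SHIP, rose by 1.78 and 1.81. In NNK, Plcg2 and Inpp5d rose, while Btk and Fyn fell by 1.32 and 1.02. T cells, B cells and macrophages use the same signalling genes. Beside the signalling counts, LPS, NNK and LPS/NNK called 56.1%, 51.9% and 55.4% of all items.

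Of 20 genes of mast cell growth and transcription, 16 were tested; 7 were higher in each treated group and 4, 4 and 5 lower. The receptor subunits shared by interleukin 3 and its relatives were higher: Csf2rb2 by 1.89, 1.53 and 2.07, and Csf2rb by 1.26 in NNK and 1.34 in LPS/NNK. Mitf, a transcription factor of mast cells and pigment cells, rose by 1.65 in LPS/NNK, and by 1.49 and 1.73 against NNK and LPS, with levels of -1.94, -2.48 and -2.10 in LPS/NNK and none above -3.42 on the other 9 arrays. The interleukin 33 gene Il33 did not pass in LPS, NNK or LPS/NNK (-0.01, 0.51 and 0.75), and Il3 and Il9 were above background on no array. Beside the growth and transcription counts, LPS, NNK and LPS/NNK called 56.1%, 51.9% and 55.4% of all items.

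Of 21 further granule genes, 13 were tested; 4, 3 and 5 were higher and 2, 2 and 2 lower. The lysosomal gene Hexa, which encodes a hexosaminidase subunit and is expressed in most cells, rose by 1.75 in LPS and by 1.74 in LPS/NNK. Of 16 genes of histamine, prostaglandin and leukotriene handling, 13 were tested; 6, 5 and 9 were higher and 3, 5 and 3 lower. Ltc4s, which makes leukotriene C4, rose by 2.43, 1.79 and 2.69. Both enzymes that degrade histamine changed, in opposite directions: Hnmt, the intracellular methyltransferase, fell by 1.33 and 1.40 in LPS and NNK, and Aoc1, the secreted diamine oxidase, rose by 2.82 in NNK and 2.78 in LPS/NNK. PBS 3 was again high for Aoc1, at 0.09 against -1.77 and -2.09. Hpgds, the haematopoietic prostaglandin D synthase, was higher in LPS/NNK than in NNK by 2.58, with 1 of 3 NNK arrays above background. Beside the granule and mediator counts, LPS, NNK and LPS/NNK called 56.1%, 51.9% and 55.4% of all items.

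**Figure D5:**
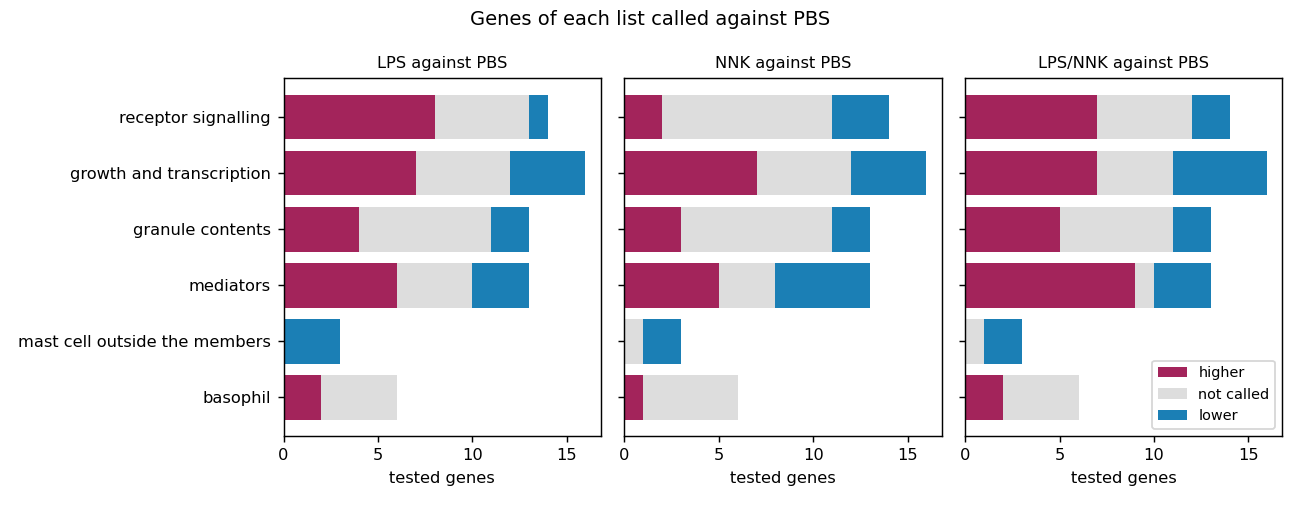
For 6 gene lists and the 3 comparisons with PBS, stacked bars count the tested genes called higher, not called and called lower at an adjusted p under 0.05. The 3 tested mast cell genes outside the 9 have no higher call in any comparison, and 8 of 14 receptor signalling genes were higher in LPS. Over all items, 56.1%, 51.9% and 55.4% were called in LPS, NNK and LPS/NNK.

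Named genes with the most similar profile over the 12 arrays were taken by Pearson's r, as a description of points that share group differences and scaling. For Cpa3 they were Clip1 (r = 0.92), Adam33, Saxo2, Adamts5 and Sbno1, for Kit they were Vav3 (r = 0.95), Pon1, Gna14, Pid1 and Arhgef3, and for Gata2 they were Fzd4 (r = 0.93), Fat4, Ctnnd2 and Gp1ba. None of the 9 genes was among them. The mean levels of Vav3 were -0.33 in PBS, -1.36 in LPS, -1.36 in NNK and -1.82 in LPS/NNK, the order in which Kit stood. Gp1ba, a platelet glycoprotein gene, had its highest mean in NNK, at -0.31, beside -1.74 in PBS. Between the 9 genes themselves, Cpa3 and Cma1 had r = 0.82, Cpa3 and Kit 0.71 and Kit and Hdc -0.74 over 12 arrays, and over the 9 treated arrays alone these were 0.54, 0.45 and -0.01. Cpa3 was above background on none of those 9.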

How the data were processed

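RNA of 12 lung samples was measured on 1-colour Agilent arrays, 1 array per sample and 3 per group. Per the file headers, the deposited intensity of each spot was background-subtracted and detrended within its array by Agilent Feature Extraction 10.7.3.1, with no scaling between arrays. The 0 or 1 marks for well above background, outlier and saturated spots are other values of that software, per the file headers, and no spot was saturated. The deposited log2 table of the series was made by the authors, whose processing notes name Feature Extraction 10.7 and Partek. Compared with the scanner files, it equalled the log2 of each probe's mean processed signal, outlier spots included, minus the array's 75th percentile over probes, to within 0.000176, so it was neither centred by gene nor signed otherwise.

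Here, the log2 of the processed signal minus the array's 75th percentile over non-control spots was used, without outlier spots (39 to 99 per array) and with the spots of a probe averaged. Of 41174 probes, 24367 had a symbol through the RefSeq accession. A probe was kept if well above background on all arrays of any 1 group (28334 probes), and the one with the highest mean stood for its gene, which gave 21856 items. One fit over the 12 arrays in limma 3.58.1 (R 4.3.3, lmFit and eBayes, 8 residual and 5.46 prior degrees of freedom) gave every comparison, with p-values adjusted over all items. No exact test could pass, since 3 arrays against 3 cannot go below p = 0.1. The labels number the samples but do not say that each is a separate mouse, so p-values measure only the spread between these samples, which may be technical. The normexp alternative had been planned on the mean spot signal and was run on the median spot signal. The 9 genes, the lists and the alternatives were chosen with earlier results of these data known. All 9 genes are described, Tpsb2 and Ms4a2 by range or where detected. From each list, genes were named if among the 4 with the smallest p in any comparison, and Cpa3, Kit and Gata2 were each given the 5 named genes with the most similar profile; some results are not reported here. Fcer1g, Nppa, Ddx3y and the markers reported as above background on no array or on 1 array fall outside this rule and were named after their values were seen. The fit was checked on simulated arrays. Promoters came from RefSeq.

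Slides, positions and scan days were read from the file headers: 4 slides held 1 array each and 4 held 2. Same-numbered samples of different groups correlated at -0.147 to 0.408 in their deviations from the group means, so the numbers were not taken to pair samples. Precision is limited by having 3 arrays in each group.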

Additional observations from a re-analysis of the deposited data

Results flagged for a closer look

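With the reported processing, the effect of LPS on Hdc differed between mice with and without NNK. That call was lost with normexp, quantile normalization and cyclic loess, and its dependence on PBS 1 and PBS 2 is given above. LPS changed Hdc by 1.12 without NNK and by -0.38 with NNK, an interaction of -1.498 on the log2 scale (SE 0.40, adjusted p = 0.0119 from limma with Benjamini-Hochberg adjustment over 21856 items, of which 39.0% were called). All 3 LPS arrays lay above all 3 PBS arrays, and 2 of the 3 LPS/NNK arrays lay below all 3 NNK arrays. Groups of 3 arrays are too small for the check for outlying samples, which was therefore not run.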

How the results depend on the processing

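The 8 tested genes were recomputed under 26 alternatives, which gave 1170 values. Of these 1115 kept their direction and side of the threshold or changed sign only while uncalled (63 values), 27 lost a call, 24 gained one and 4 reversed. The reversals all came from normexp background correction with its offset of 50 units: Cpa3 was 0.0898, 1.137 and 0.7771 in LPS, NNK and LPS/NNK against PBS, and Fcer1a was 1.349 in NNK. Normexp called 0, 5 and 2 of the 8 genes in LPS, NNK and LPS/NNK against PBS and 0 in the interaction, beside 18.4%, 35.6%, 26.0% and 0.16% of all items. Centring on the array median called 5 in NNK, beside 51.8%. Quantile normalization and cyclic loess each called 0 in the interaction, beside 40.6% and 40.3% of all items, and cyclic loess called 1, Gata2 (-0.75), in LPS/NNK against NNK, beside 17.9%. The causes of these changes were not tested. The median of all items against PBS moved from -0.10, 0.01 and -0.08 (LPS, NNK, LPS/NNK) to 0.31, 0.56 and 0.52 with normexp, 0.32, 0.25 and 0.25 with median centring and 0.45, 0.48 and 0.44 with no filter, and the share of calls that were higher moved from 44.7%, 52.5% and 48.7% to 61.5%, 82.1% and 77.5%, to 64.6%, 65.5% and 64.2%, and to 65.4%, 69.0% and 66.6%. For LPS/NNK set against NNK, then against LPS, and for the interaction, that share was 44.2%, 68.9% and 53.3%, and 54.4%, 52.2% and 34.7% with median centring, 47.0%, 80.3% and 33.0% with no filter, and 93.9% and 65.7% with normexp in the first and last, which called no item in the other. Leaving out 1 array at a time, the calls numbered 3 to 4 in LPS, 2 to 4 in NNK and 3 to 4 in LPS/NNK against PBS, 0 to 1 in LPS/NNK against NNK (1 without LPS 6, Gata2 at -0.66), 0 in LPS/NNK against LPS and 1 in the interaction. With the replicate block, which leaves 4 residual degrees of freedom, LPS/NNK against NNK called 1 gene, Gata2 (-0.86), and the other comparisons kept their counts of 3, 3, 4, 0 and 1; the numbers do not pair the samples by the labels. With PBS 3 as the only control, Hdc was lost in the interaction and Cpa3 (2.68) passed, beside 12.3% of all items; Cpa3 was above background on no treated array, so this restates its PBS 3 level. With the slide as a fixed effect, possible for 3 comparisons, Kit in NNK was lost (-0.83). The use of a gene's other probe was chosen after seeing the data. The low signal of the treated arrays limits Cpa3, Tpsb2, Fcer1a and Ms4a2, whose levels there were wholly or partly below background.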
